A study of Homo sapiens with 66 samples.

Results

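The 36 genes described here belong to the stress programmes run by the transcription factor ATF4 and by the unfolded protein response. The set is a list of 20 genes of the ATF4 branch, which serves amino acid supply and stress signalling, and 16 genes of the endoplasmic reticulum (ER) chaperone branch. Their symbols were matched to Ensembl IDs, and each of the 36 matched 1 of the 58721 gene IDs in every count table. All 36 passed the filter on low counts in all 3 tables.

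When amino acids run short, haem is lacking or unfolded protein gathers in the ER, kinases phosphorylate the translation factor eIF2alpha, general translation slows and ATF4 mRNA is translated more. ATF4 then drives genes for amino acid synthesis and uptake, for transfer RNA charging and for feedback. The ER also signals through the sensors IRE1 (encoded by ERN1) and ATF6, which act on chaperone genes through spliced XBP1 and through cleaved ATF6. ATF4 is controlled largely at translation, and IRE1 and ATF6 act through splicing and cleavage, so gene counts report their targets rather than their activity. In melanoma, ER stress and ATF4 have been studied in the response to BRAF inhibition.

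The 66 RNA-seq libraries form 22 groups of 3, all from A375, a human melanoma line with mutant BRAF. In the Mediator experiment (42 libraries, 14 groups) cells carrying either of 2 guides to MED12, to MED19 or to MED23, or control cells with a guide to GFP, received 1 µM vemurafenib, a BRAF inhibitor, or DMSO for 24 h. In the SOX10 experiment (12 libraries) MED23 knockout cells (guide 1) and cells with the GFP guide overexpressed the transcription factor SOX10 or carried an empty vector. In the HDAC3 experiment (12 libraries) cells lacked HDAC3, MED23 or both, or were controls. MED12, MED19 and MED23 are subunits of Mediator, which links transcription factors to RNA polymerase II, and HDAC3 is a histone deacetylase. The labels give all cells the same line, name no treatment for the SOX10 and HDAC3 experiments, and do not say whether edited cells were clones or pools.

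The libraries held 65.9 to 211.8 M counts (M, mega) in the Mediator experiment (median 112.6), 24.9 to 30.8 M in the SOX10 experiment (median 27.7) and 58.8 to 106.2 M in the HDAC3 experiment (median 68.5). The mRNA of each edited gene was below every unedited library of its experiment, at 23.1% of the mean for MED12, 49.7% for MED19, 44.5% to 50.0% for MED23 and 54.9% for HDAC3. Over control and MED23 knockout cells pooled, SOX10 mRNA was at 423.2 to 611.8 CPM with the SOX10 vector and at 239.3 to 530.8 CPM without it. These pooled ranges overlap and do not give the change within either genotype. Of 7 melanocytic markers, 4 or 5 had a median of 1 CPM or more in each experiment, while the pigment enzyme gene TYR had a median under 0.1 CPM. Blood cell markers summed to at most 2.91 CPM, and CD3E had a median under 0.1 CPM. Other marker sets were not all that low. All 3 fibroblast markers had a median of 1 CPM or more in each experiment. In the Mediator experiment they summed to up to 51.9 CPM, with COL1A1 at a median of 17.7 CPM. There the 4 epithelial markers summed to up to 18.6 CPM, with KRT14 at up to 17.6, and the 3 endothelial markers to up to 6.65 CPM. The source of these counts was not tested. The labels give 1 batch to each experiment, so no comparison below crosses a batch. They do not say that replicates were separate cultures, and p-values measure only the spread between these libraries.

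Chaperone genes and amino acid genes carry different known control elements, and the promoter windows of RefSeq (GRCh38.p14, from 250 bases before to 50 bases after the gene start) show where each lies. Windows were found for 32 of the 36 genes, and none for NUPR1, PSPH, ALDH1L2 and SHMT2. The ER stress element was searched on both strands as CCAAT and CCACG with 9 bases of any kind between them, and the C/EBP-ATF element as TGATGNAAN, also on both strands. No window held overlapping matches of both. The ER stress element was found in 6 of the 16 ER chaperone genes (XBP1, HSPA5, HSP90B1, CALR, PDIA6 and CRELD2) and in 0 of the 16 ATF4 branch genes with a window, against 0.092% of the 27305 genes with a window. The C/EBP-ATF element was found in 3 of the 16 ATF4 branch genes with a window (CHAC1, ASNS and CEBPG) and in 1 of the 16 ER genes (HERPUD1), against 4.45% of genes. Some genes have several windows, and counted per window the ER stress element was in 6 of 19 ER and 0 of 25 ATF4 branch windows (0.077% of all 35116 windows), and the C/EBP-ATF element in 1 of 19 and 3 of 25 (3.611% of all windows). A match is a description of the letters and is not a measured binding site.

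In GENCODE 29 on GRCh38, HSPA5 (ENSG00000044574) spans chr9:125234853-125241330 on the minus strand, CRELD2 (ENSG00000184164) chr22:49918167-49927540 on the plus strand and CHAC1 (ENSG00000128965) chr15:40952962-40956519 on the plus strand. The 250 bases before the RefSeq start are printed for these 3 genes, which carry results below, HSPA5 (chr9:125241344-125241593, minus strand), CRELD2 (chr22:49918384-49918633, plus strand) and CHAC1 (chr15:40953221-40953470, plus strand), each 5′ to 3′ along the gene. Capitals mark the ER stress element in HSPA5 and CRELD2 and the C/EBP-ATF element in CHAC1. In CRELD2 and CHAC1 the match lies on the opposite strand, so the capitals are its reverse complement.
HSPA5: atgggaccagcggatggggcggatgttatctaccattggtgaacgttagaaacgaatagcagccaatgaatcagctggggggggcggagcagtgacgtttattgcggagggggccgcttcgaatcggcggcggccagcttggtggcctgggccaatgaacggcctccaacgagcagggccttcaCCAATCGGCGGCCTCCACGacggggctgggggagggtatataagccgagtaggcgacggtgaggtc
CRELD2: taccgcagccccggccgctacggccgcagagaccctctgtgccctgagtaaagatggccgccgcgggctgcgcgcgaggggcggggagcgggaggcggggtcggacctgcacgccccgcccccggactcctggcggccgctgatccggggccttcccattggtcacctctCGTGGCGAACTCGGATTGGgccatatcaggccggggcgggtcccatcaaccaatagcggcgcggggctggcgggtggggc
CHAC1: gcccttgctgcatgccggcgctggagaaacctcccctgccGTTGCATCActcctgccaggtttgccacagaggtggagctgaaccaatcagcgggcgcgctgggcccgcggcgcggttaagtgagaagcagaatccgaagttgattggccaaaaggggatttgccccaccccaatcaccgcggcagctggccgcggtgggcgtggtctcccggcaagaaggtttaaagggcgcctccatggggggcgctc

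Levels are given in CPM, the count scaled to the TMM-adjusted library size, and are compared between genes only per kilobase of exon. In control cells in DMSO, CALR (calreticulin, a lectin chaperone) had the highest level per kilobase at 511.3 CPM, followed by HSPA5 (BiP, the main ER chaperone) at 305.6 and HSP90B1 (GRP94) at 275.0. ATF4 followed at 114.4 CPM per kilobase and PSAT1, an enzyme of serine synthesis, at 102.6. The lowest levels per kilobase were those of VLDLR, a lipoprotein receptor, at 1.12, ERN1 at 0.922, ASNS at 0.111 and NUPR1 at 0.0825. The same 3 chaperones led the order in the control groups of the other experiments, with HSPA5 at 1194.2 ± 12.9, 1173.0 ± 16.3 and 1192.1 ± 3.34 CPM (mean ± SD, n = 3 libraries each; the tables were scaled separately).

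ASNS, which makes asparagine and is a classical ATF4 target, had 15 to 107 counts per library in the Mediator experiment, 9 to 12 in the SOX10 experiment and 29 to 59 in the HDAC3 experiment. Of its 4455 exon bases, 1985 overlap an annotated gene on the same strand, AC079781.5, so its count is uncertain and its changes are hard to detect at this depth. Exons of ATF5, DDIT3 and HSP90B1 also overlap other genes on the same strand. On the opposite strand, exons of ATF5, DDIT3, DDIT4, CEBPB, SHMT2, MTHFD2, ALDH1L2, VLDLR, HSP90B1, CALR, PDIA6, DNAJB9, EDEM1 and CRELD2 overlap other genes. The strand setting of the counting is not given in the sources used here, so reads of these genes and of their neighbours may be mixed and their counts are uncertain. For DDIT4 the overlap is 847 of 2058 exon bases, with DDIT4-AS1, and for CRELD2 it is 168 of 5165 exon bases, with ALG12.

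**Figure D1:**
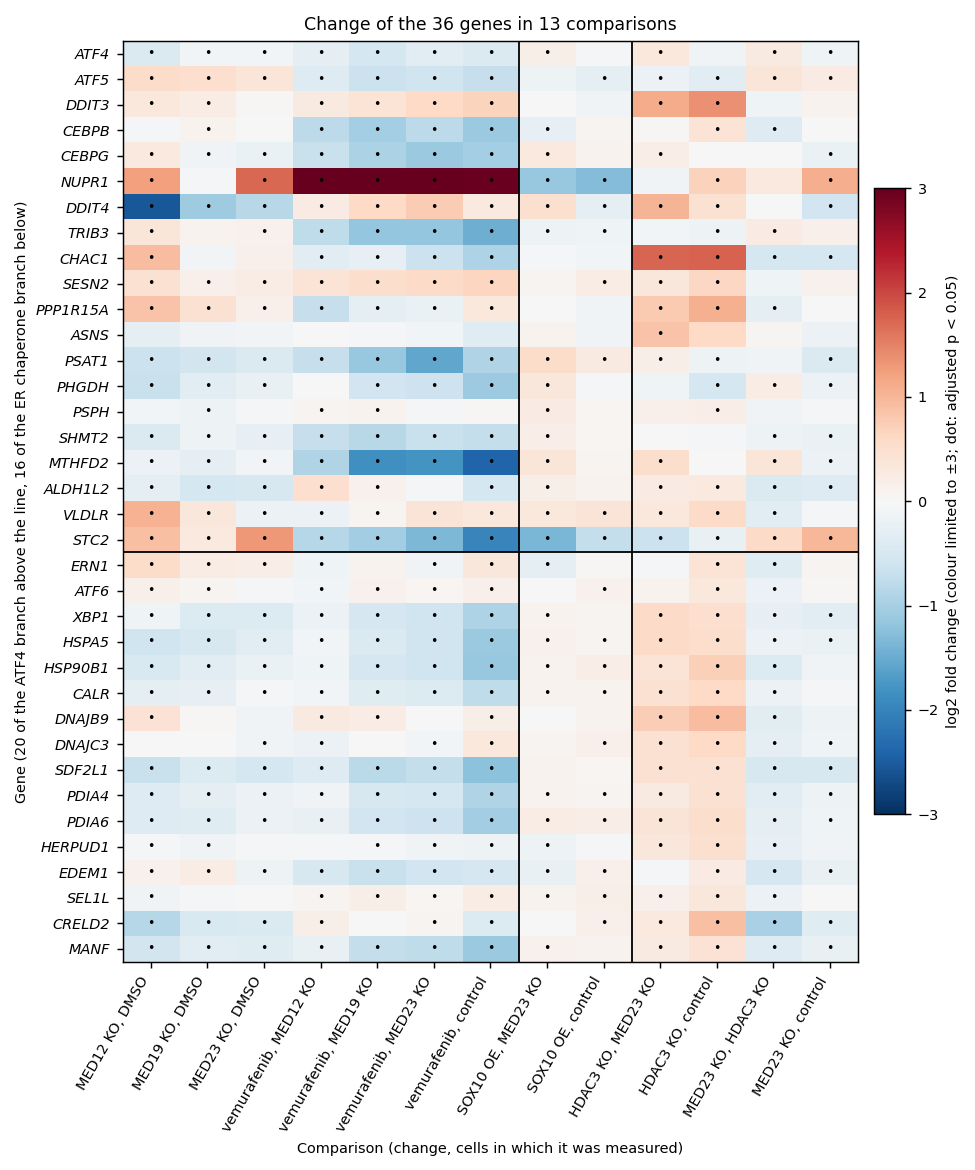
Log2 fold changes of the 36 genes (rows, by branch) in 13 comparisons (columns); colour is limited to 3 in either direction and a dot marks an adjusted p under 0.05. All 16 ER chaperone genes are higher in HDAC3 knockout than in control cells, and the column of the drug in control cells shows 23 of the 36 genes lower.

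Vemurafenib lowered most of both branches in control cells. Rises and falls are calls with a Benjamini-Hochberg adjusted p under 0.05 from edgeR's quasi-likelihood fit over all genes, and values are log2 fold changes ± SE. Of the 36 genes, 11 rose (30.6%) and 23 fell (63.9%), against 35.8% and 30.3% of all 27453 genes tested. Genes with many counts are called more often, and of the 10893 genes with a mean log2 CPM of 3 or more, called well-counted genes here, 37% rose and 51.4% fell. Both branches had nearly the same median, -0.62 for the ATF4 branch (6 higher, 12 lower of 20) and -0.64 for the ER branch (5 higher, 11 lower of 16), against 0.11 for all genes. Mitochondrial genes took 2.42% to 2.76% of the counts of control libraries with vemurafenib, against 1.15% to 1.23% in DMSO, and the part of this shift in the result was not tested. In these bulk samples, fewer cells of a kind and less RNA per cell cannot be told apart.

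MTHFD2, the mitochondrial enzyme of folate metabolism, was at 32.1, 33.3 and 32.5 CPM with vemurafenib, against 177.5, 170.8 and 172.4 CPM in DMSO. No libraries overlap, and the change of -2.41 ± 0.040 (adjusted p = 3.3e-43) was the largest fall of the 36. STC2, a secreted glycoprotein induced by ER stress, was at 3.02, 2.97 and 3.44 CPM with the drug, against 12.9, 11.5 and 12.9 CPM in DMSO, a fall of 1.98 on the log2 scale (SE 0.068, adjusted p = 7.3e-30). TRIB3, a pseudokinase that restrains ATF4 and CHOP, was at 18.3, 18.3 and 20.8 CPM with the drug, against 51.2, 56.3 and 52.3 CPM in DMSO (-1.48 ± 0.057). Of the 7 amino acid and one-carbon enzymes 5 fell and 0 rose: PHGDH, the first enzyme of serine synthesis, changed by -1.08 ± 0.035, PSAT1 by -0.91 and SHMT2 by -0.72. PSPH, the last enzyme of serine synthesis, was at 0.04 (adjusted p = 0.39) and ASNS at -0.37 ± 0.27 (adjusted p = 0.24), and neither passed the test. Among the transcription factors, CEBPB fell by 1.12, CEBPG by 1.01, ATF5 by 0.70 and ATF4 itself by 0.43 on the log2 scale.

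Other stress genes of the ATF4 branch rose under the drug. NUPR1, a small chromatin protein of the stress response, was at 3.44, 3.26 and 4.23 CPM with vemurafenib, against 0.488, 0.38 and 0.535 CPM in DMSO (2.96 ± 0.14, adjusted p = 1.95e-24). DDIT3, which encodes the pro-apoptotic factor CHOP, rose by 0.66 ± 0.063, and SESN2, an inhibitor of mTORC1, by 0.65 ± 0.054. PPP1R15A (GADD34), which directs eIF2alpha dephosphorylation, rose by 0.32 and DDIT4 (REDD1), another mTORC1 inhibitor, by 0.30. CHAC1, which degrades glutathione and is often read together with DDIT3, fell by 0.93 on the log2 scale (SE 0.145).

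In the ER branch the chaperones fell and the sensors did not fall together. HSPA5 was at 532.8, 566.8 and 561.2 CPM with vemurafenib, against 1193.8, 1181.4 and 1207.3 CPM in DMSO (-1.11 ± 0.022, adjusted p = 1.2e-39). HSP90B1 changed by -1.13 ± 0.021, SDF2L1, a partner of BiP, by -1.23 ± 0.066, MANF, a secreted ER factor, by -1.12 ± 0.036 and the disulfide isomerase PDIA6 by -1.03 ± 0.022. All 3 vemurafenib libraries lay below all 3 DMSO libraries for each of these. XBP1 fell by 0.92 on the log2 scale, whereas ERN1 rose by 0.35 and ATF6 by 0.14. DNAJC3, the co-chaperone that inhibits PERK, rose by 0.31, DNAJB9 (ERdj4) by 0.17 and SEL1L, an adaptor of ER-associated degradation, by 0.22. HERPUD1, another degradation component, fell by only 0.15 on that scale.

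Lists of related genes gave the surroundings of this change, beside 37% of the well-counted genes higher and 51.4% lower. Of 20 cytosolic aminoacyl-tRNA synthetases, which charge transfer RNAs and include many ATF4 targets, 18 fell and 1 rose (median -0.78), with FARSB at -1.98 ± 0.043. Of 9 amino acid transporters 8 fell and 1 rose, led by SLC7A1 at -2.36 ± 0.045. Of 8 other serine, proline and one-carbon enzymes 6 fell, MTHFD1L by 1.82 on the log2 scale, and 2 rose. Of 23 other ER folding and degradation genes 17 fell and 5 rose (median -0.29), and of 15 genes for eIF2alpha kinases, eIF2B and their regulators 8 fell and 4 rose. The share of falls in that last list, 53.3%, was near that of the well-counted genes. Falls also ran through chaperones outside the ER, with 8 of 9 cytosolic heat shock genes lower (HSPA8 -2.68 ± 0.032) and 7 of 7 mitochondrial chaperones and proteases lower (HSPE1 -2.04 ± 0.045). Of 9 other stress-induced ATF4 and CHOP targets, 4 rose and 4 fell. ATF3, a stress-induced repressor, rose by 3.60 ± 0.075, and EIF4EBP1, a translation inhibitor, fell by 2.09 on the log2 scale.

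**Figure D2:**
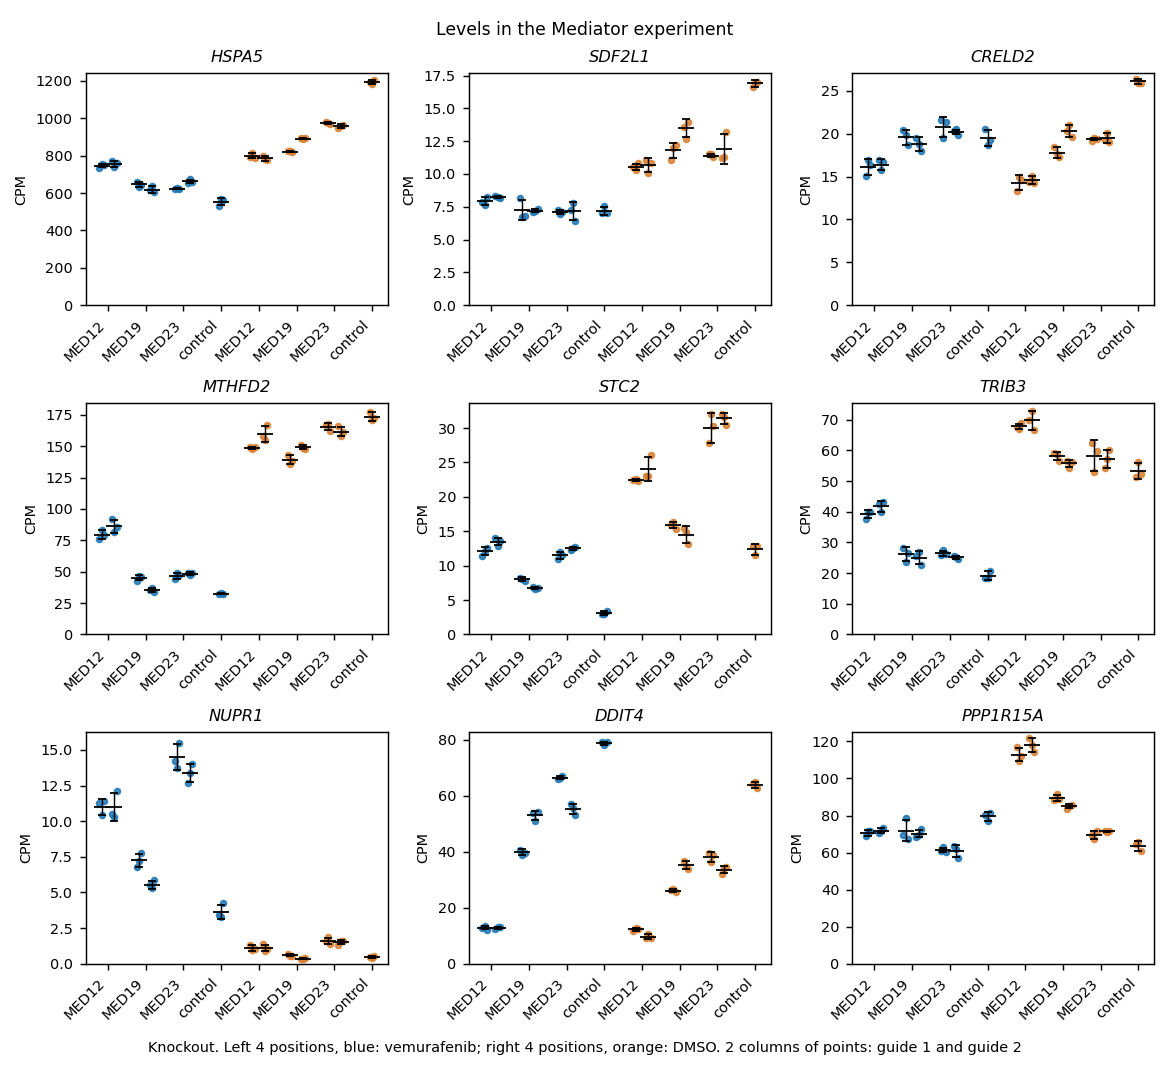
CPM of 9 genes in each library of the Mediator experiment (points, with mean and SD as bars), 3 libraries per guide; the 4 positions on the left are vemurafenib and the 4 on the right DMSO. HSPA5 is at 532.8 to 566.8 CPM in control cells with the drug and at 736.2 to 771.4 CPM in MED12 knockout cells with it.

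Loss of each Mediator subunit was first read in DMSO, and the 3 comparisons share the same 3 control libraries. MED12 knockout gave 14 of 36 genes higher and 18 lower, against 27.9% and 27.0% of all genes tested (37.3% and 43.6% of the well-counted genes). MED19 knockout gave 10 higher and 19 lower, against 20.4% and 20.2% (32.7% and 35% of the well-counted genes). MED23 knockout gave 7 higher and 20 lower, against 18.4% and 18.5% (29.1% and 32.4% of the well-counted genes). In the ER branch, loss of MED12 lowered 11 of 16 genes, loss of MED19 lowered 10 and loss of MED23 lowered 11, with medians of -0.21, -0.26 and -0.15. In the ATF4 branch rises and falls were mixed: of 20 genes, 10 rose and 7 fell without MED12, 7 rose and 9 fell without MED19, and 6 rose and 9 fell without MED23.

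DDIT4 fell with loss of each subunit. It was at 11.7, 12.7 and 12.5 CPM with MED12 guide 1 and 9.28, 10.7 and 9.1 CPM with guide 2, against 64.1, 65.1 and 62.9 CPM in control cells (-2.55 ± 0.037, adjusted p = 2.6e-45). In MED19 knockout cells it was at 25.6 to 36.8 CPM (-1.08 ± 0.035) and in MED23 knockout cells at 32.1 to 39.4 CPM (-0.84 ± 0.035). Every edited library lay below every control library, and MED12 knockout libraries lay below those of the other subunits.

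STC2 and NUPR1 rose with loss of MED23 and of MED12. STC2 was at 27.8, 32.0 and 30.3 CPM with MED23 guide 1 and 32.1, 31.6 and 30.5 CPM with guide 2, against 12.9, 11.5 and 12.9 CPM in control cells (1.31 ± 0.052, adjusted p = 1.9e-26). NUPR1 was at 1.57, 1.86 and 1.42 CPM with MED23 guide 1 and 1.34, 1.57 and 1.61 CPM with guide 2, against 0.488, 0.38 and 0.535 CPM (1.72 ± 0.14, adjusted p = 3.2e-15). Their changes with MED12 loss were 0.90 ± 0.052 for STC2 and 1.24 ± 0.14 for NUPR1. With MED19 loss STC2 rose by 0.29, and NUPR1 was at -0.04 (adjusted p = 0.87).

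MED12 loss also raised other stress genes of the ATF4 branch. CHAC1 rose by 0.92 ± 0.12, PPP1R15A by 0.86 ± 0.035, ATF5, a relative of ATF4, by 0.56, SESN2 by 0.45, TRIB3 by 0.37 and DDIT3 by 0.32. VLDLR was at 20.4 to 22.6 CPM in MED12 knockout libraries, against 10.3 to 10.7 CPM in control libraries (1.03 ± 0.041). Of the 5 stress and feedback effectors 4 rose and DDIT4 fell, and of the 7 amino acid and one-carbon enzymes 5 fell and 0 rose. ATF4 mRNA fell by 0.43 on the log2 scale, SHMT2 by 0.43, PHGDH by 0.66 and PSAT1 by 0.65. With MED19 loss ATF5 rose by 0.51 and PPP1R15A by 0.45, while PSAT1 fell by 0.54 and ALDH1L2, the mitochondrial folate dehydrogenase, by 0.53. With MED23 loss ATF5 rose by 0.35, while PSAT1 fell by 0.42 and ALDH1L2 by 0.48 on that scale. ATF4 changed by -0.08 with MED19 loss and by -0.08 with MED23 loss, and with MED19 guide 2 alone its value was -0.0167 (adjusted p = 0.698). TRIB3 was at 0.12 with MED23 loss (adjusted p = 0.043), a call that was lost without either of 2 control libraries (replicates 1 and 3), without any of 4 MED23 knockout libraries, and with either guide alone.

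Among the ER genes CRELD2, a secreted ER stress protein with an ER stress element in its promoter, was at 13.3 to 15.1 CPM in MED12 knockout cells, against 25.9 to 26.4 CPM in control cells (-0.85 ± 0.041, adjusted p = 1.55e-23). It changed by -0.46 ± 0.042 with MED19 loss and by -0.43 ± 0.042 with MED23 loss. HSPA5 fell by 0.59, 0.48 and 0.31 on the log2 scale with loss of MED12, MED19 and MED23, and SDF2L1 by 0.67, 0.42 and 0.53. XBP1 changed by -0.13 ± 0.034 without MED12, by -0.40 ± 0.034 without MED19 and by -0.42 ± 0.034 without MED23. ERN1 and DNAJB9 went the other way in MED12 knockout cells, rising by 0.56 and 0.42. HERPUD1 was at -0.07 with MED12 loss (adjusted p = 0.045), a call that was lost with guide 1 alone and without any 1 of 6 libraries, namely control replicates 2 and 3, all 3 libraries of guide 1 and replicate 2 of guide 2. Of the related lists, 17 of 20 synthetases fell and 0 rose with MED12 loss. Of 9 other stress-induced targets 8 rose, ATF3 by 2.50 ± 0.069, and 1 fell. Of the well-counted genes 37.3% rose and 43.6% fell.

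Direct comparisons of the subunits in DMSO use no control library, but any 2 of them share the libraries of 1 knockout. Between MED12 and MED23 knockout cells 15 of 36 genes were higher with MED12 loss and 17 lower (25.9% and 24.9% of all genes). VLDLR was higher with MED12 loss by 1.20 ± 0.033, PPP1R15A by 0.71, CHAC1 by 0.77 and DNAJB9 by 0.53, and DDIT4 was lower by 1.71 on the log2 scale (SE 0.033). Between MED19 and MED23 knockout cells 11 were higher with MED19 loss and 12 lower (17.5% and 16.1%), led by NUPR1 at -1.76 ± 0.12 and STC2 at -1.02 ± 0.041. EDEM1, a lectin of ER-associated degradation, was 0.37 ± 0.020 higher with MED19 loss than with MED23 loss. Between MED12 and MED19 knockout cells 15 were higher with MED12 loss and 15 lower (23.8% and 22.9%), with NUPR1 at 1.28 ± 0.12, CHAC1 at 1.00 ± 0.096 and DDIT4 at -1.47 ± 0.033. Of the well-counted genes, 35.9% were higher and 41% lower in the first comparison, 29.5% and 27.4% in the next, and 32.8% and 39.1% in the last.

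Under vemurafenib, most of the 36 genes were higher with MED12 loss than in control cells. Rises also outnumbered falls with MED19 loss, as they did among the well-counted genes. With MED23 loss the shares of rises and falls were near those of the well-counted genes. MED12 knockout cells had 22 of 36 genes higher and 9 lower than control cells, both with the drug, against 32.5% and 29.6% of all genes (49.4% and 35.6% of the well-counted genes). Without MED19, 16 were higher and 7 lower, against 23.1% and 20.7% of all genes and 39.6% and 30.7% of the well-counted genes. Without MED23, 14 were higher and 13 lower, against 24.6% and 22.7% of all genes and 39.9% and 33% of the well-counted genes. The 3 comparisons share the control libraries with vemurafenib, and the MED23 libraries with the drug held 69.5 to 79.8 M counts, against 99.1 to 123.2 M in those controls, whose part in the result was not tested. Mitochondrial genes took 1.67% to 2.29% of the counts in MED12 knockout libraries with the drug, against 2.42% to 2.76% in those controls.

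STC2 was at 11.4, 12.2 and 12.6 CPM with MED12 guide 1 and 14.0, 12.9 and 13.6 CPM with guide 2 under the drug, against 3.02, 2.97 and 3.44 CPM in control cells with the drug (2.02 ± 0.063, adjusted p = 1.0e-31). Its change was 1.23 ± 0.064 with MED19 loss and 1.93 ± 0.064 with MED23 loss. NUPR1 rose by 1.59, 0.79 and 1.93 with loss of MED12, MED19 and MED23, and TRIB3 by 1.08, 0.42 and 0.43. CHAC1 rose by 1.52 ± 0.13 with MED12 loss and by 0.60 ± 0.13 with MED19 loss, and its rise of 0.43 with MED23 loss (adjusted p = 0.0075) was lost without control replicate 2 (adjusted p = 0.0535).

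MTHFD2 was at 76.0, 83.3 and 79.3 CPM with MED12 guide 1 and 92.0, 81.6 and 85.3 CPM with guide 2, against 32.1, 33.3 and 32.5 CPM in control cells, all with the drug (1.35 ± 0.036, adjusted p = 1.4e-34). PSAT1 was lower with MED23 loss, at 54.7 to 58.4 CPM, against 115.7 to 122.7 CPM in control cells (-1.08 ± 0.027), and with MED19 loss (-0.76 ± 0.027). HSPA5 was at 736.2, 755.6 and 749.1 CPM with MED12 guide 1 and 771.4, 740.4 and 759.8 CPM with guide 2, against 532.8, 566.8 and 561.2 CPM in control cells (0.44 ± 0.020). All 6 MED12 libraries lay above the 3 controls for HSPA5, the reverse of their order in DMSO. XBP1 rose by 0.62 ± 0.036 with MED12 loss, while it was at 0.02 with MED19 loss (adjusted p = 0.71). DDIT4 stayed low with MED12 loss (-2.61 ± 0.036), and DNAJC3 fell by 0.50 on the log2 scale with MED12 loss and by 0.50 with MED23 loss.

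**Figure D3:**
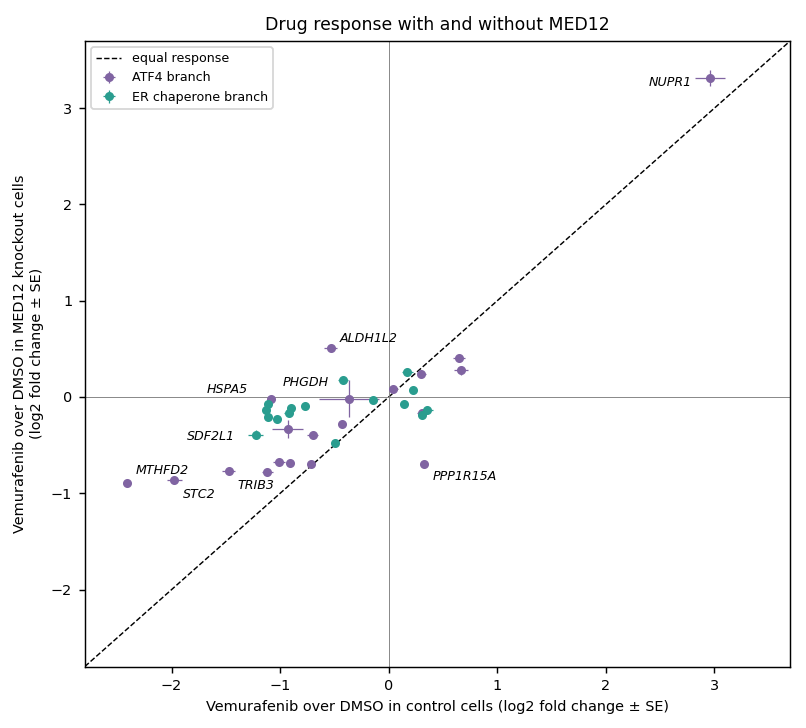
Log2 fold change with vemurafenib in MED12 knockout cells (vertical axis) against that in control cells (horizontal axis) for the 36 genes, coloured by branch, with SE bars and the line of equal response. HSPA5, HSP90B1 and PHGDH lie near 0 in MED12 knockout cells and below -1 in control cells.

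The drug response itself was tested between knockout and control cells as an interaction, in which a positive value means a higher response in the knockout. The interactions of MED12, MED19 and MED23 all subtract the response of the same control libraries, so they are not independent of each other. With MED12 loss 21 of 36 genes had a higher response and 8 a lower one, against 24.9% and 24.2% of all genes (44.9% and 32.8% of the well-counted genes). Without MED19, 17 were higher and 9 lower, against 17.4% and 15.2% of all genes and 33.8% and 25.1% of the well-counted genes. Without MED23, 17 were higher and 6 lower, against 18.5% and 16.2% of all genes and 35.3% and 26.7% of the well-counted genes. Within knockout cells the drug still lowered most of the genes: 24 of 36 in MED12, 22 in MED19 and 24 in MED23 knockout cells, against 30.8%, 32.6% and 32.1% of all genes and 51.6%, 53.1% and 52.3% of the well-counted genes. It raised 9, 10 and 8 of them, against 32.4%, 37.7% and 37.4% of all genes and 35%, 37.2% and 38% of the well-counted genes.

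The fall of HSPA5 and HSP90B1 with the drug was smaller in cells without each subunit. HSPA5 changed with the drug by -0.08 ± 0.016 in MED12 knockout cells, -0.44 ± 0.016 in MED19 knockout cells and -0.59 ± 0.016 in MED23 knockout cells, against -1.11 ± 0.022 in control cells. The interaction was 1.03 ± 0.027 for MED12 (adjusted p = 5.15e-34), 0.67 ± 0.027 for MED19 and 0.52 ± 0.027 for MED23. The small fall left in MED12 knockout cells was not called without the filter on low counts (-0.0409, adjusted p = 0.0848). HSP90B1 followed the same order, with drug responses of -0.51 and -0.61 in MED19 and MED23 knockout cells, against -1.13 in control cells, and an interaction of 1.00 ± 0.025 for MED12. MANF, SDF2L1, PDIA6 and PDIA4 had MED12 interactions between 0.79 and 0.90. Of the 5 ER genes that the drug raised in control cells, DNAJC3 (-0.50), ERN1 (-0.49), ATF6 (-0.21) and SEL1L (-0.15) had negative MED12 interactions, and DNAJB9 was at 0.09 (adjusted p = 0.252). These 5 were picked by their rise in control cells, which the interaction subtracts, so the choice itself favours negative values. The medians of the MED12, MED19 and MED23 interactions were 0.64, 0.40 and 0.34 in the ER branch and 0.32, 0.09 and 0.16 in the ATF4 branch, against -0.04, -0.00 and -0.01 for all genes.

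In the ATF4 branch, some one-carbon and serine enzymes were among the genes with the largest MED12 interactions. Of the 7 amino acid and one-carbon enzymes 4 had a higher response, 0 a lower one and 3 were not called. Their median was 0.35, close to the 0.32 of the whole branch. MTHFD2 fell by 0.90 on the log2 scale with the drug in MED12 knockout cells, 1.85 in MED19 and 1.78 in MED23 knockout cells, against 2.41 in control cells, with a MED12 interaction of 1.52 ± 0.047 (adjusted p = 3.4e-31). PHGDH was at 99.4 to 110.1 CPM with the drug and 102.6 to 110.3 CPM in DMSO in MED12 knockout cells, against 77.9 to 81.6 CPM with the drug and 162.4 to 171.0 CPM in DMSO in control cells (interaction 1.06 ± 0.042). ALDH1L2 rose with the drug by 0.51 in MED12 knockout cells and fell in control cells by 0.53 (interaction 1.04 ± 0.072). The interactions of STC2 were 1.12 for MED12, 0.94 for MED19 and 0.62 for MED23. PSAT1 had a MED23 interaction of -0.66 ± 0.039, while that of PHGDH was 0.45.

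PPP1R15A changed sign. It was at 68.9 to 73.3 CPM with vemurafenib and at 109.7 to 121.9 CPM in DMSO in MED12 knockout cells, against 76.9 to 81.3 CPM with vemurafenib and 60.7 to 65.6 CPM in DMSO in control cells (interaction -1.02 ± 0.047, adjusted p = 4.7e-24). Its interaction was -0.62 with MED19 loss and -0.53 with MED23 loss. NUPR1 rose with the drug in all 4 genotypes, by 3.31, 3.80 and 3.17 in MED12, MED19 and MED23 knockout cells, against 2.96 in control cells. Of the related lists, 16 of 20 synthetases had a higher response with MED12 loss and 1 a lower one. For 8 other serine, proline and one-carbon enzymes these counts were 7 and 0. They were 15 and 3 for 23 other ER genes, and 9 and 0 for 9 cytosolic heat shock genes. Of the well-counted genes, 44.9% had a higher response and 32.8% a lower one. ATF3 had a lower response with MED12 loss, by -3.14 ± 0.086.

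Loss of MED23 was measured in 3 experiments with different control libraries, which allowed the same genes to be read again. With the empty vector 6 of 36 genes rose and 17 fell (21.2% and 22.3% of the 18009 genes tested), and in the HDAC3 experiment 3 rose and 18 fell (12.3% and 12.0% of the 21139 genes tested). Of the well-counted genes, 25.2% rose and 30.2% fell with the empty vector, and 16.4% and 16.6% in the HDAC3 experiment. Over all 3 experiments 3 genes (STC2, NUPR1 and ATF5) were called higher each time, and 15 were called lower each time. These 15 are ATF4, DDIT4, PSAT1, PHGDH, SHMT2, MTHFD2, ALDH1L2, CEBPG, XBP1, HSPA5, PDIA4, PDIA6, SDF2L1, CRELD2 and MANF. None of the 36 (0) was called in opposite directions. The shares of all genes called alike in all 3 experiments, or in opposite directions, were not counted. These counts therefore have no background and are not read as particular to the 36 genes. The changes of the 36 genes correlated between experiments with Pearson's r of 0.94, 0.936 and 0.919, a description across genes that share libraries within each experiment.

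STC2 was at 26.9, 27.1 and 27.5 CPM in MED23 knockout cells with the empty vector, against 13.2, 13.8 and 13.9 CPM in control cells with it (0.99 ± 0.060). In the HDAC3 experiment it was at 20.5, 20.1 and 21.3 CPM in MED23 knockout cells, against 10.4, 10.2 and 10.6 CPM in control cells (0.99 ± 0.075). NUPR1 rose by 0.99 ± 0.17 and 1.09 ± 0.25 in these experiments. DDIT4 fell by 1.01 on the log2 scale with the empty vector and by 0.57 in the HDAC3 experiment, and the libraries did not overlap in either. PSAT1 fell by 0.51 and 0.44, XBP1 by 0.36 and 0.31, SDF2L1 by 0.56 and 0.48, CRELD2 by 0.37 and 0.36, and HSPA5 by 0.22 and 0.20 on that scale. ATF4 changed by -0.14 and by -0.13, and the second of these calls was lost without any 1 of control replicates 2 and 3 and MED23 knockout replicates 2 and 3 (adjusted p up to 0.107).

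**Figure D4:**
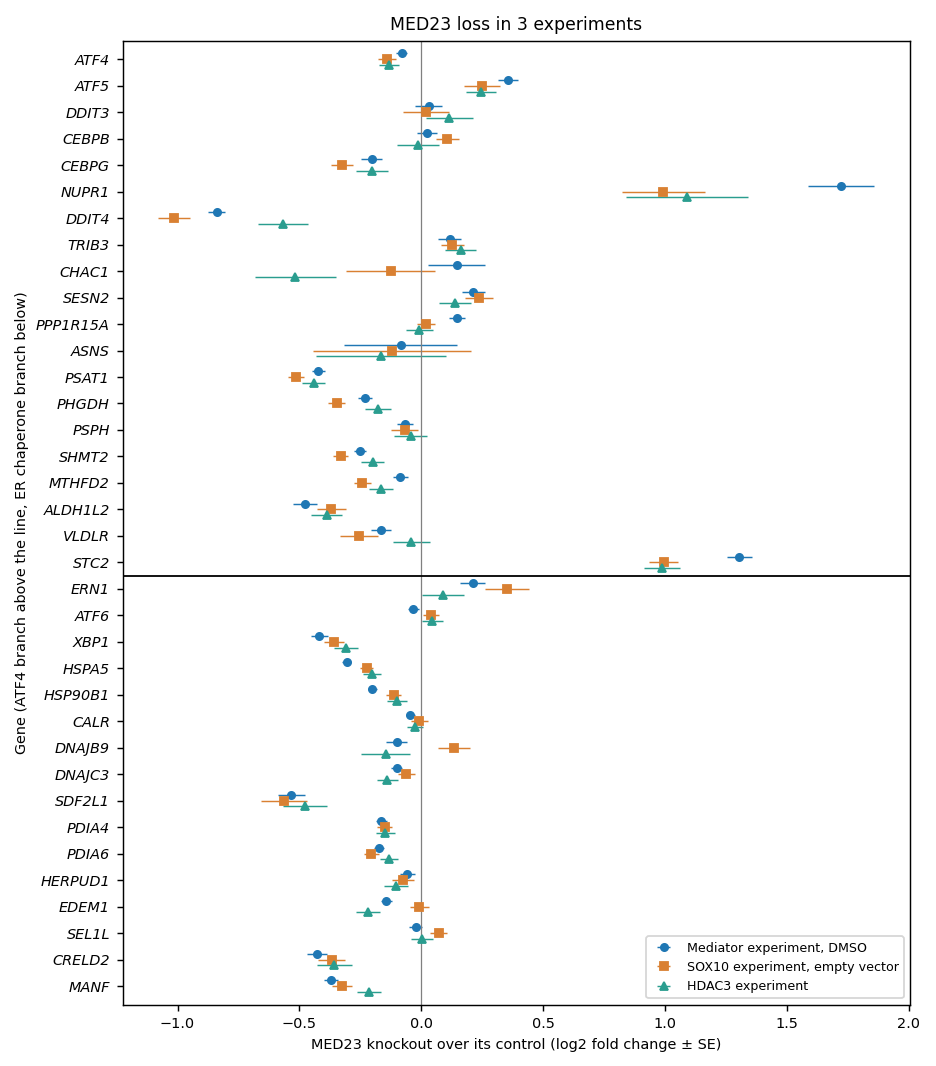
Log2 fold change ± SE (horizontal axis) of MED23 knockout over its own control for each of the 36 genes (rows), with 1 marker for each of the 3 experiments. STC2 and NUPR1 lie farthest to the right in all 3, and DDIT4 farthest to the left.

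In control cells SOX10 overexpression raised most of the ER branch by small amounts and lowered NUPR1 and STC2. There 13 of 36 genes rose and 5 fell, against 11.6% and 11.0% of all genes (15.8% and 13.3% of the well-counted genes). The rises were mainly in the ER branch, where 10 of 16 rose and 0 fell, with a median of 0.10 and with HSP90B1 at 0.20 ± 0.030 and PDIA6 at 0.19 ± 0.031 in front. The call of HSPA5 (0.09) was lost without empty vector replicate 1 or SOX10 replicate 2 (adjusted p up to 0.0869), and that of EDEM1 (0.15) without SOX10 replicate 2 (adjusted p = 0.0521). The call of CRELD2 (0.15) was lost without any 1 of the 3 empty vector libraries or SOX10 replicate 1 (adjusted p up to 0.253). NUPR1 was at 0.492, 0.407 and 0.622 CPM with SOX10 overexpression, against 1.12, 1.2 and 1.51 CPM with the empty vector (-1.31 ± 0.24, adjusted p = 0.00011). STC2 was at 8.96, 8.55 and 7.61 CPM, against 13.2, 13.8 and 13.9 CPM (-0.70 ± 0.074, adjusted p = 9.0e-09). Both genes, which MED23 loss raised, were thus lower in every SOX10 library.

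In MED23 knockout cells SOX10 overexpression raised 18 genes and lowered 7, against 21.2% and 20.7% of all genes (29.3% and 23.2% of the well-counted genes). STC2 was at 11.3, 9.6 and 10.6 CPM with SOX10 overexpression, against 26.9, 27.1 and 27.5 CPM with the empty vector, both in MED23 knockout cells (-1.37 ± 0.063, adjusted p = 3.5e-17). PSAT1 rose by 0.54 ± 0.031, DDIT4 by 0.49 ± 0.067, MTHFD2 by 0.36, PHGDH by 0.35 and ATF4 by 0.17, each of them a gene that MED23 loss lowered. In this experiment MED23 loss and these rises were read with the same MED23 knockout libraries with the empty vector, with opposite sign. Opposite changes are thus partly built in. MED23 loss also lowered these genes in the Mediator and HDAC3 experiments, which have other libraries. NUPR1 fell by 1.14 on the log2 scale. Mitochondrial genes took 1.20% to 1.38% of the counts with SOX10 overexpression, against 1.76% to 1.86% with the empty vector, whose part was not tested. Of 7 amino acid and one-carbon enzymes among the members 6 rose, and of 20 synthetases 10 rose and 0 fell.

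With SOX10 overexpressed, MED23 knockout cells had 4 genes higher and 19 lower than control cells, against 16.1% and 16.3% of all genes. Of the well-counted genes, 20.4% were higher and 22.1% lower. In the ER branch 12 of 16 were lower and 0 higher, led by SDF2L1 at -0.51 ± 0.091 and CRELD2 at -0.50 ± 0.053. STC2 was still higher by 0.33 ± 0.076 and NUPR1 by 1.16 ± 0.24. The SOX10 effect differed between MED23 knockout and control cells for 10 genes, 7 higher and 3 lower, against 7.64% and 7.04% of all genes. Among the well-counted genes these shares were 10.8% and 9.56%. DDIT4 (0.79 ± 0.089), PHGDH (0.39), PSAT1 (0.28), MTHFD2 (0.28) and ATF4 (0.20) responded more positively in MED23 knockout cells, and STC2 (-0.67 ± 0.098), EDEM1 (-0.37) and CEBPB (-0.31) more negatively. HSPA5 was at 0.04 in that comparison (SE 0.039, adjusted p = 0.54).

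Loss of HDAC3 raised the whole ER chaperone branch. Of the 36 genes 26 rose and 5 fell, against 21.2% and 20.9% of all genes (29.4% and 29.2% of the well-counted genes), and in the ER branch 16 of 16 rose, with a median of 0.50. In the ATF4 branch 10 of 20 rose and 5 fell, with a median of 0.25. The HDAC3 knockout libraries held 64.5 to 67.4 M counts, against 95.2 to 104.9 M in the control libraries, and the part of depth in the result was not tested. The 3 control columns of this table carry a GFP name and were taken as the control group by elimination, on which every comparison with its control cells rests.

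HSPA5 was at 1778.6, 1669.9 and 1733.5 CPM in HDAC3 knockout cells, against 1195.7, 1191.2 and 1189.2 CPM in control cells (0.54 ± 0.037, adjusted p = 7.7e-11). CRELD2 was at 37.0, 36.2 and 33.8 CPM in HDAC3 knockout cells, against 19.2, 18.1 and 19.9 CPM in control cells (0.90 ± 0.071, adjusted p = 6.2e-10). DNAJB9 was at 31.5, 44.1 and 39.7 CPM, against 17.4, 21.2 and 22.1 CPM (0.93 ± 0.10). Every HDAC3 knockout library lay above every control library for these 3 genes. HSP90B1 rose by 0.71, CALR by 0.61, DNAJC3 by 0.61, PDIA6 by 0.53, XBP1 by 0.50, HERPUD1 by 0.49, ERN1 by 0.40 and ATF6 by 0.33. EDEM1 had the smallest rise of the branch (0.24 ± 0.049).

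In the ATF4 branch, 4 of the 5 stress and feedback effectors rose, while the 7 amino acid and one-carbon enzymes were mixed, with 2 higher and 2 lower. CHAC1 was at 5.59, 5.39 and 5.83 CPM in HDAC3 knockout cells, against 1.41, 1.77 and 1.75 CPM in control cells (1.77 ± 0.15, adjusted p = 2.1e-09). DDIT3 was at 13.1, 14.4 and 13.1 CPM, against 4.81, 5.46 and 5.55 CPM (1.36 ± 0.094, adjusted p = 5.9e-11). PPP1R15A was at 122.6, 115.2 and 116.5 CPM, against 59.0, 56.1 and 55.0 CPM (1.06 ± 0.057, adjusted p = 8.8e-13). The groups did not overlap for any of these 3 genes. SESN2 rose by 0.61, VLDLR by 0.58, DDIT4 by 0.45 and CEBPB by 0.42. PHGDH was at 94.3, 94.2 and 92.2 CPM, against 136.4, 132.6 and 134.9 CPM (-0.52 ± 0.052), and PSAT1 fell by 0.16 on the log2 scale. ALDH1L2 rose by 0.29 ± 0.064 and PSPH by 0.20 ± 0.066.

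Other ATF4 branch genes missed or barely passed the test. MTHFD2 was at -0.02 (adjusted p = 0.80), SHMT2 at -0.06 (adjusted p = 0.32) and ATF4 mRNA at -0.10 ± 0.041 (adjusted p = 0.051). This fall of ATF4 passed the test under each of the 5 alternatives that kept all libraries (adjusted p from 0.0214 to 0.0479) and under none of the 6 that left 1 out (0.0507 to 0.128). ASNS was at 0.59 ± 0.26 (adjusted p = 0.077). The calls of NUPR1 (0.70, adjusted p = 0.037) and TRIB3 (-0.16, adjusted p = 0.049) were each lost without any 1 of 4 libraries, 2 of them controls and 2 HDAC3 knockouts (adjusted p up to 0.156 and 0.188). Of the related lists, 20 of 23 other ER folding and degradation genes rose and 0 fell, P4HB, a disulfide isomerase, by 0.75 ± 0.041 and PDIA3 by 0.67 ± 0.041. Of 9 other stress-induced targets 6 rose, ATF3 by 2.20 ± 0.088 and the cytokine gene GDF15 by 1.36 ± 0.14, and 1 fell. Of the well-counted genes 29.4% rose and 29.2% fell. Cytosolic heat shock genes did not follow, with 0 of 9 higher and 2 lower, and EIF2AK3, which encodes the ER kinase PERK, rose by 0.65 ± 0.072.

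**Figure D5:**
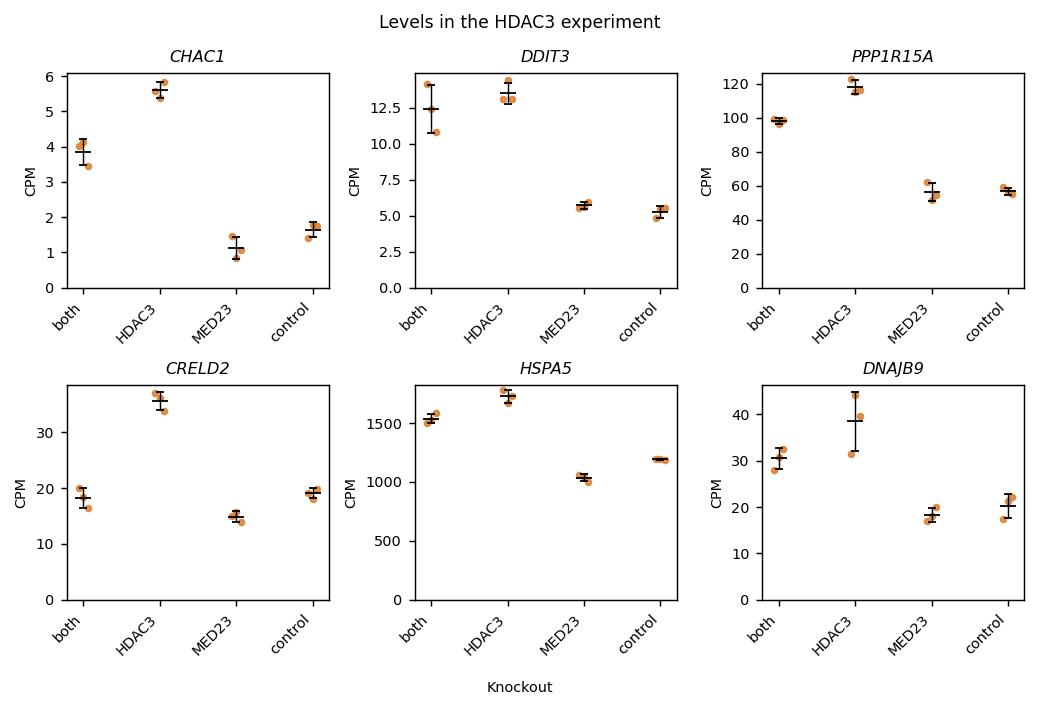
CPM of 6 genes in the 12 libraries of the HDAC3 experiment (points, with mean and SD as bars), from left to right both knockouts, HDAC3 knockout, MED23 knockout and control cells. CRELD2 is at 16.4 to 20.0 CPM with both genes lost and at 33.8 to 37.0 CPM with HDAC3 lost alone.

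HDAC3 loss was read again in cells that also lacked MED23. There 25 of 36 genes rose and 2 fell, against 19.1% and 18.9% of all genes (28.7% and 25.3% of the well-counted genes). CHAC1 was at 4.02, 4.12 and 3.44 CPM with both genes lost, against 1.46, 0.84 and 1.07 CPM with MED23 lost alone (1.75 ± 0.16). DDIT3 rose by 1.12 ± 0.095, DDIT4 by 1.01 ± 0.10, PPP1R15A by 0.80 ± 0.057 and HSPA5 by 0.57 ± 0.037. ATF4 rose by 0.31 ± 0.041 here, and STC2 fell by 0.65 on the log2 scale (SE 0.076). Against control cells, the double knockout had 22 genes higher and 4 lower (18.2% and 18.4% of all genes), with DDIT3 at 1.23, CHAC1 at 1.23 and HSPA5 at 0.37. Of the well-counted genes, 27.5% were higher and 25.1% lower in that comparison.

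MED23 loss in cells without HDAC3 lowered every ER chaperone gene. In the ER branch 16 of 16 fell, with a median of -0.31, and of all 36 genes 6 rose and 22 fell, against 17.2% and 18.3% of all genes (25.9% and 24.7% of the well-counted genes). The rise of all 16 with HDAC3 loss and their fall here use the same HDAC3 knockout libraries, with opposite sign. Comparisons without those libraries were less uniform in the ER branch. HDAC3 loss in MED23 knockout cells raised 13 of 16 and lowered 0, and MED23 loss in control cells lowered 9 and raised 0. The double knockout had 11 of 16 higher and 1 lower than control cells. CRELD2 was at 20.0, 18.5 and 16.4 CPM with both genes lost, against 37.0, 36.2 and 33.8 CPM with HDAC3 lost alone (-0.96 ± 0.073, adjusted p = 4.0e-10). EDEM1 fell by 0.50, SDF2L1 by 0.49, HSP90B1 by 0.41 and MANF by 0.39 on the log2 scale. The ATF4 branch was mixed, with 6 of 20 genes higher and 6 lower. Of its 7 amino acid and one-carbon enzymes, MTHFD2 rose by 0.37 ± 0.050 and PHGDH by 0.22, ALDH1L2 fell by 0.43 and SHMT2 by 0.15 on the log2 scale, and the other 3 did not pass the test. ATF4 rose by 0.28 ± 0.041 and STC2 by 0.56 ± 0.080. ATF4 was at 314.7, 309.1 and 307.9 CPM with both genes lost, against 258.1, 255.7 and 255.1 CPM with HDAC3 lost alone. Of 23 other ER genes, 13 fell and 1 rose.

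The effect of MED23 loss differed between cells without and with HDAC3 for 18 genes, 5 higher and 13 lower, against 10.0% and 10.5% of all genes (16.2% and 15.4% of the well-counted genes). The 5 that were higher all belong to the ATF4 branch: DDIT4 (0.55), MTHFD2 (0.54 ± 0.070), ATF4 (0.41 ± 0.058, adjusted p = 1.4e-05), PHGDH (0.39) and PSAT1 (0.35). In the ER branch 9 of 16 were lower and 0 higher, with CRELD2 at -0.60 ± 0.10 (adjusted p = 0.00014), ERN1 at -0.45, HSP90B1 at -0.31 and EDEM1 at -0.29. HSPA5 was at 0.03 ± 0.053 (adjusted p = 0.72) and XBP1 at 0.07 ± 0.068 (adjusted p = 0.54). CHAC1 (-0.02, adjusted p = 0.97) and DDIT3 (-0.24, adjusted p = 0.225) did not pass the test either. This interaction uses all 4 groups, so it shares its libraries with the comparisons above.

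The 6 ER genes with an ER stress element in the promoter window were set beside the 10 without one, as a description of few genes. With vemurafenib in control cells the 6 had a median of -0.98 (from -1.13 to -0.42) and the 10 a median of -0.00 (from -1.23 to 0.35). In the MED12 interaction the 6 lay between 0.60 and 1.03 (median 0.78) and the 10 between -0.50 and 0.90 (median 0.05). With MED23 loss in HDAC3 knockout cells the medians were -0.26 for the 6 and -0.34 for the 10, and with vemurafenib in MED12 knockout cells -0.11 and -0.13. In the MED23 by HDAC3 interaction they were -0.15 and -0.18, so the sets were close in these 3 comparisons. With vemurafenib in MED19 and MED23 knockout cells the medians were -0.47 and -0.59 for the 6, and -0.04 and -0.11 for the 10. In the MED19 and MED23 interactions with the drug they were 0.45 and 0.46 for the 6, and 0.01 and -0.08 for the 10. With MED12, MED19 and MED23 loss in DMSO they were -0.43, -0.38 and -0.25 for the 6, and -0.04, -0.02 and -0.1 for the 10. Not all comparisons are given here. With HDAC3 loss the 6 lay between 0.50 and 0.90 (median 0.57) and the 10 between 0.24 and 0.93 (median 0.45). The 6 include CALR, HSPA5 and HSP90B1, the genes with the highest levels per kilobase. SDF2L1 (-1.23) and MANF (-1.12), which have no match in this window, also fell with the drug in control cells.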

How the data were processed

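Gene counts were deposited as raw, whole-number tables, which the authors made with bcl2fastq, HISAT2 and HTSeq on hg38, per the submitters' processing notes. RNA came from poly(A)-selected, strand-marking libraries, per the labels' protocols. The sources used here do not give versions, annotation or the strand setting. Each table was fitted on its own with edgeR 4.0.16 in R 4.3.3 (limma 3.58.1): filterByExpr with a minimum count of 10, TMM scaling, a mean per group and the quasi-likelihood test, with guides weighted equally and Benjamini-Hochberg adjustment over all genes tested. SE is the log2 fold change divided by the root of F. CPM used the TMM-scaled library size. Named were 8 anchor genes in every comparison, up to 6 genes per branch with the largest called change, and up to 3 genes per related list, while other members were described by role. Members and lists were chosen with earlier results of these data known. Genes with a mean log2 CPM of 3 or more were added as a second background after the data were seen. The fit was tested on simulated data: in the MED23 knockout in DMSO, 100 of 100 genes changed 2-fold were recovered, and 8 of 24376 unchanged genes were called. The changed genes all had a log2 CPM over 2 in control cells, and libraries were drawn independently. The simulation thus does not cover genes counted as weakly as ASNS, NUPR1 and CHAC1, or correlated replicates. Changes smaller than 1.5-fold were not simulated. Same-numbered deviations had a mean correlation of 0.006 in the Mediator and 0.043 in the SOX10 experiment, so replicate numbers did not pair libraries there as a rule. In the HDAC3 experiment the mean was 0.214, and 72.2% of pairs exceeded 0.1. It was 0.312 for HDAC3 loss and 0.231 for MED23 loss in control cells. For HDAC3 loss in cells lacking MED23, all pairs exceeded 0.1 (0.152 to 0.332). The main fit of this experiment does not pair libraries, so its replicate block is given in the closing section.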

Additional observations from a re-analysis of the deposited data

Results flagged for a closer look

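Effects that differed between cell backgrounds by an interaction test are listed here as values. The drug response differed between MED12 knockout and control cells for MTHFD2 (1.52), STC2 (1.12), PHGDH (1.06), ALDH1L2 (1.04), HSPA5 (1.03) and PPP1R15A (-1.02), as differences of log2 fold changes. Of the 36 genes it differed for 29 in MED12, 26 in MED19 and 23 in MED23 knockout cells. The response also differed for much of the background. With MED12 loss 44.9% of the well-counted genes had a higher response and 32.8% a lower one. These shares were 33.8% and 25.1% with MED19 loss, and 35.3% and 26.7% with MED23 loss. The effect of SOX10 overexpression differed between MED23 knockout and control cells for 10 of the 36 genes. Among the well-counted genes it was higher for 10.8% and lower for 9.56%. The effect of MED23 loss differed between HDAC3 knockout cells and cells with HDAC3 for 18 of the 36 genes. Among the well-counted genes it was higher for 16.2% and lower for 15.4%.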

How the results depend on the processing

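Every count of members called stayed within 1.5 times of its reported value when low counts were kept, with DESeq2 size factors, with the DESeq2 Wald test, with only the groups compared, with 1 guide alone, with a replicate block and without any 1 library. For single genes 7471 of 7621 values kept direction and call, 127 lost their call, 21 gained one and 2 changed sign. Those 2 came from guide 2 alone in MED19 against MED23 knockout cells in DMSO, with ATF4 at 0.0748 (adjusted p = 0.0342) and DDIT4 at 0.0686 (adjusted p = 0.271); the cause was not tested. Leaving out 1 library moved no value by over 1.5-fold, and the largest shift was 0.265 on the log2 scale. Without 1 library the members called numbered 12 to 16 for SOX10 overexpression in control cells (18 with all) and 12 to 17 for the MED23 by HDAC3 interaction (18 with all). The replicate block gave 30 members called for HDAC3 knockout in MED23 knockout cells, against 27 without it. In control cells it gave 32 for HDAC3 knockout, against 31, and 23 for MED23 knockout, against 21. For the MED23 by HDAC3 interaction it gave 19, against 18. With the block, 2 single gene values gained a call and 0 lost one: ATF4 with HDAC3 loss (-0.10, adjusted p = 0.0214) and TRIB3 with MED23 loss in the HDAC3 experiment (0.16, adjusted p = 0.0118). ATF4 with HDAC3 loss also gained a call when low counts were kept (adjusted p = 0.0336), with DESeq2 size factors (0.0479), with only the groups compared (0.044) and with the DESeq2 Wald test (0.032). Counts of ASNS, NUPR1 and CHAC1 were low, which limits what could be detected for them.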
